A study of Mus musculus with 17 samples.

Results

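ΔBor is a deletion of a chromatin domain boundary at the Sox9-Kcnj locus of mouse chromosome 11, and its effect on gene expression was examined in limb buds of E12.5 embryos, the stage at which the digit cartilages condense. The comparison rests on 3 ΔBor libraries, 2 heterozygous (het 1 and het 2) and 1 homozygous (hom 1), against 4 wild-type libraries (WT 1 to WT 4). They were chosen by the genotype in their labels and are 7 of the 15 libraries of the series that were analysed here. The het and hom libraries were first taken as 1 group, and WT, het and hom were then ordered as 0, 1 and 2 deleted alleles. The other 8 libraries (Dup-LΔBor, 4 libraries that carry a duplication with the boundary deletion; Dup-L and Dup-C, 2 libraries each of a duplication) entered the shared estimate of the spread, and their levels are given beside some results. By their labels all 7 libraries come from limb buds of E12.5 embryos and carry no treatment. The labels give no strain, no sex and no limb of origin, they do not say whether embryos were pooled, and hom has a single library. Nothing in them shows that replicates came from different embryos, so p-values here reflect only how far these libraries spread, and part of that spread may be technical.

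Boundaries between topologically associating domains are stretches of DNA, often bound by CTCF, that limit contact between enhancers on one side and promoters on the other. At this locus a boundary lies between the domain of Sox9, which encodes the transcription factor that starts cartilage formation in the limb, and the domain of Kcnj2 and Kcnj16, 2 genes whose products are potassium channels that pass current inward more easily than outward and help to set the resting membrane potential. Sox9 is controlled in the limb by distant enhancers, so the question put by the deletion is whether genes on either side change when the boundary is lost.

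Total counts, in units of 1e6 reads, were 38.0 to 38.6 in het, 37.9 in hom and 34.5 to 53.7 in WT. The libraries differed in markers of limb type. Levels are given in CPM, counts scaled to 1e6 counts per library with library sizes adjusted by the TMM method. Pitx1, the regulator of hindlimb identity, was at 39.9 and 116 CPM in het and 80.2 CPM in hom. In WT 1 to WT 4 it was at 59.8, 1.83, 70.1 and 1.83 CPM. All ΔBor libraries were thus high in Pitx1, as were WT 1 and WT 3, while WT 2 and WT 4 were low. Comparisons were therefore repeated against WT 1 and WT 3 alone. Xist, the RNA of the inactive X chromosome, was at 0.87 and 0.84 CPM in het and 2870 CPM in hom, against 2265 CPM in WT 1 and 1.01 CPM or less in WT 2 to WT 4. The Y-linked gene Eif2s3y had 1 count in hom and 0 counts in WT 1, and 1713 to 3525 counts in the 5 libraries low in Xist. In hom against het, sex and the second deleted allele therefore cannot be told apart.

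Kcnj2 was higher in every ΔBor library than in every WT library. It stood at 44.5 and 30.4 CPM in het and at 63.0 CPM in hom, against 26.2, 21.7, 22.2 and 17.6 CPM in WT 1 to WT 4. The groups did not overlap, as in 11.7% of tested genes in this direction, and the hom library was the highest of the 7. The mean was 46.0 ± 16.3 CPM in ΔBor (SD, n = 3) and 21.9 ± 3.51 CPM in WT (SD, n = 4), with a fitted log2 fold change of 1.07 (SE 0.21, adjusted p = 0.00683 in edgeR's quasi-likelihood test with Benjamini-Hochberg adjustment over 17655 genes, as for every adjusted p below unless another fit is named). Across all genes tested in that comparison, 20.1% passed the same threshold of 0.05, 11.4% as higher and 8.65% as lower in ΔBor. Against WT 1 and WT 3 alone, the log2 fold change of Kcnj2 was 0.91 (adjusted p = 0.0423). With a term for batch, meaning the 2 ranges of library numbers in the column headers, it was 0.94 (adjusted p = 0.0735), and within the first range, with WT 1 and WT 2 as the only wild types, it was 0.95 (adjusted p = 0.0771). It was called in 8 of 15 alternative fits and in all 7 fits that left out 1 library, with a log2 fold change between 0.61 and 1.29 over these 22.

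Kcnj2 was ordered by the number of deleted alleles. Its mean was 21.9 CPM with 0 deleted alleles and 37.5 CPM with 1, and the library with 2 had 63.0 CPM. The slope was 0.76 log2 units per allele (SE 0.10, adjusted p = 0.00375). It passed in 10 of 15 alternative fits and in all 7 without 1 library. Among these 7, the fit without hom 1 holds only 0 and 1 deleted alleles. Its slope is that of het against WT and says nothing of an order over 0, 1 and 2. With the 7 libraries alone in the fit no gene passed for allele number, and the slope of Kcnj2 was 0.75 (adjusted p = 0.0979). Every library was ordered as WT, het and hom, as were 5.22% of tested genes in the rising and 3.33% in the falling direction. In the genotypes taken singly, the log2 fold change was 0.77 in het against WT (SE 0.19, adjusted p = 0.043) and 1.52 in hom against WT (SE 0.22, adjusted p = 0.01). The step between the genotypes, 0.75 in hom against het (SE 0.26, unadjusted p = 0.0121), did not pass the threshold over all genes (adjusted p = 0.999). These comparisons share the WT libraries or the ΔBor libraries and are not independent of each other.

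Sox9, on the other side of the boundary, stood at 187 and 183 CPM in het and at 183 CPM in hom, against 162, 161, 136 and 124 CPM in WT 1 to WT 4. All 3 ΔBor libraries lay above all 4 WT libraries, as in 11.7% of tested genes, and the 3 were close to each other. The log2 fold change was 0.34 (SE 0.12) and missed the threshold (adjusted p = 0.0592). The slope per deleted allele was 0.21 (SE 0.09, adjusted p = 0.104), and the difference of hom from het was -0.01 (SE 0.20, adjusted p = 0.999). Sox9 passed without WT 1 (0.39, adjusted p = 0.0306), without WT 2 (0.40, adjusted p = 0.0423) and in DESeq2 (0.34, adjusted p = 0.0365), and in none of the other 19 fits.

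No other gene of the locus passed. For Kcnj16, the channel gene beside Kcnj2, no library held more than 3 counts and the low-count filter removed it. Without a filter it did not pass (adjusted p = 0.59 in edgeR and 0.878 in limma), and a change in it was not detectable at this depth. The noncoding RNA gene 2610035D17Rik, near Sox9, was at -0.07 (SE 0.15, adjusted p = 0.755), and BC006965 at -0.40 (SE 0.33, adjusted p = 0.402). Map2k6, which encodes a kinase upstream of p38 and lies beyond Kcnj16, was at 0.23 (SE 0.11, adjusted p = 0.132). The zinc transporter gene Slc39a11, beyond Sox9, was at 0.11 (SE 0.09, adjusted p = 0.429). Of 24 genes listed further out on both sides, 23 were tested; 2 rose and 2 fell, a share close to that of all genes. The lipid transporter genes Abca5 (0.50, adjusted p = 0.0413) and Abca8b (0.41, adjusted p = 0.0426) rose, and the ribosomal protein gene Rpl38 (-0.49, adjusted p = 0.0138) and Cpsf4l (-0.71, adjusted p = 0.0142) fell. With offsets for GC content and transcript length none of these 4 passed (adjusted p from 0.0844 to 0.529). Among 15 genes of inward-rectifier potassium channels, 12 were tested, and Kcnj2 was the only one past the threshold (median of the 12, -0.14 log2 units; median of all genes, -0.02). In 10 equal parts of chromosome 11 by gene order, the one that holds Kcnj2 and Sox9 had 18.9% of its 132 tested genes called, against 10.6% to 28.8% in the other 9.

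**Figure D1:**
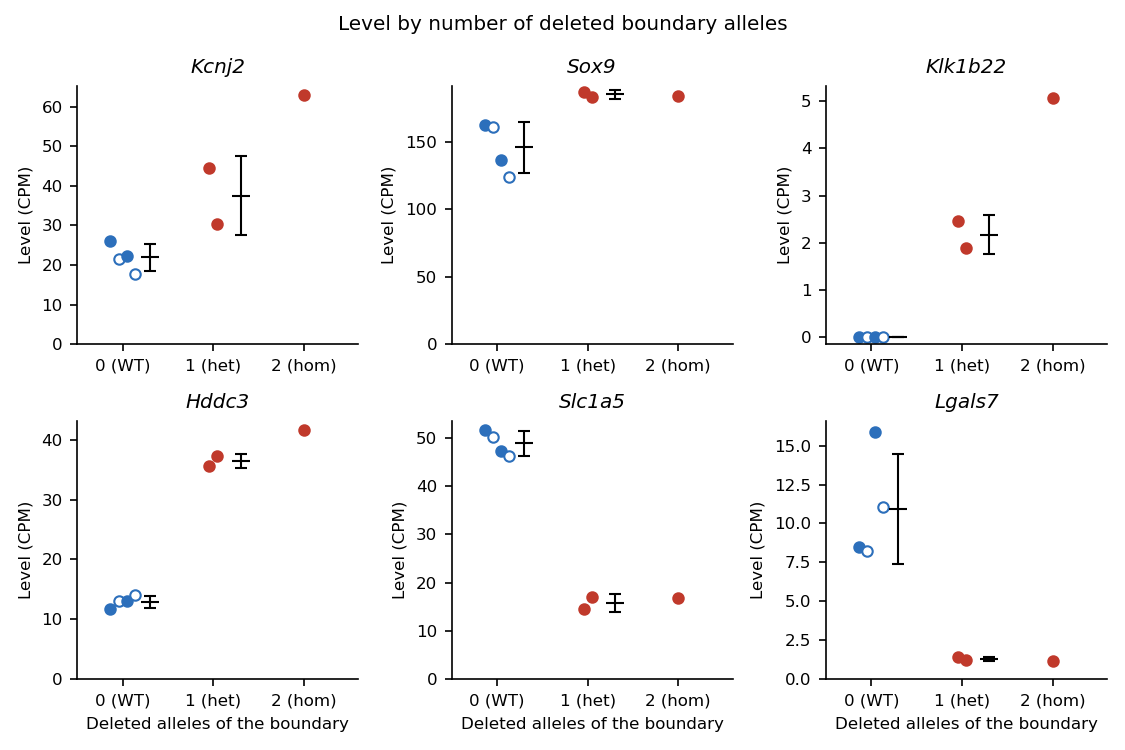
Level in CPM (linear axis) against the number of deleted boundary alleles for 6 genes. Red points are ΔBor libraries and blue points WT libraries (filled, WT 1 and WT 3, high in Pitx1; open, WT 2 and WT 4), and the bars beside them give the mean and SD where a genotype has more than 1 library. Kcnj2 is lowest with 0 deleted alleles and highest with 2 (63.0 CPM), whereas Slc1a5 and Hddc3 differ between WT and het but little between het and hom.

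The genes called in every fit lay outside the Sox9-Kcnj locus. Of the 3541 genes called in the pooled comparison, 2013 rose and 1528 fell, (8.65% of tested genes fell and 11.4% rose), and 285 of them changed at least 2-fold. Against WT 1 and WT 3 alone 2073 genes were called (11.8%), and there 43.7% of the calls were higher in ΔBor, against 56.8% with all 4 WT libraries. Only 16 genes passed in the same direction in all 15 alternative fits and in all 7 fits without 1 library. A gene that a fit did not test, or gave no adjusted p, was counted as not passing, so genes of low level could be left out. Abcc6 and Vmn2r29 passed in each of the 13 alternative fits that gave them an adjusted p. AF365933_gene passed in each of 12 such fits, and all of these genes passed in the 7 without 1 library. Of the 16, 10 were lower in ΔBor and 6 higher, and those named here were named after their values were seen. For 3 of the 6 no GC content was found, and the offsets for GC and length left them uncorrected. Passing the fits with offsets was therefore no test of GC for these 3. Of these 16, 10 lie on chromosome 7, which holds 7.02% of the genes tested. For 11 of the 16 the ΔBor libraries also lay outside the range of all 12 other libraries of the series, as did 383 of the 17655 genes tested. These 12 include the 4 WT libraries against which the 16 were called, and none of the 16 overlapped with WT. The 2 shares therefore have unlike bases and are not to be compared.

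Hddc3, which encodes a hydrolase related to the bacterial enzymes that degrade the alarmone ppGpp, rose about as far in het as in hom. Against WT the log2 fold change was 1.5 in het (SE 0.10, adjusted p = 2.13e-06) and 1.69 in hom (SE 0.12, adjusted p = 1.19e-05). It stood at 35.6 and 37.3 CPM in het and at 41.7 CPM in hom, against 11.6, 13, 13 and 14 CPM in WT 1 to WT 4. Pooled, the log2 fold change was 1.56 (SE 0.09, adjusted p = 1.47e-07), and it lay between 1.46 and 1.74 in the 22 other fits. The groups did not overlap, as in 11.7% of tested genes in this direction, and het and hom differed by 0.19 (SE 0.15). The 4 Dup-LΔBor libraries by their genotype also carry a boundary deletion. In them Hddc3 was at 12.3 to 14.8 CPM, which overlaps the WT range, while Kcnj2 was at 45.7 to 69.4 CPM. Kcnj2 was at 25.3 to 33.4 CPM in Dup-L, which overlaps het, and at 75.2 to 87.7 CPM in Dup-C. The Dup-C libraries thus lay above every ΔBor library in Kcnj2.

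Slc1a5, which encodes a sodium-dependent carrier of glutamine and other neutral amino acids, fell to 14.4 and 17.1 CPM in het and 16.7 CPM in hom, against 51.6, 50.1, 47.3 and 46.1 CPM in WT 1 to WT 4. Its groups were apart too, as in 11% of tested genes in the lower direction. The log2 fold change was -1.60 (SE 0.09, adjusted p = 9.07e-08), with a range of -1.66 to -1.35 over the other fits, and hom differed from het by 0.08 (SE 0.14, adjusted p = 0.999). Dup-LΔBor libraries were at 51.9 to 61.3 CPM, Dup-L at 37.7 to 41.7 CPM and Dup-C at 51.6 to 52.9 CPM, all above the ΔBor libraries. Among 14 genes of the SLC1 and SLC7 families of amino acid transporters, 13 were tested and 2 fell (8.65% of all genes fell), Slc1a5 and the neuronal glutamate transporter gene Slc1a6 (-0.61, SE 0.20, adjusted p = 0.0466). Slc1a6 was between 1.80 and 2.53 CPM in ΔBor and between 2.41 and 3.87 CPM in WT, so its groups overlapped, and it did not pass against WT 1 and WT 3 alone (adjusted p = 0.113). The median of the family was -0.21.

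Klk1b22, a member of the tissue kallikreins, a cluster of secreted serine protease genes on chromosome 7, had 93 and 72 counts in het and 184 counts in hom, against 0 counts in all 4 WT libraries. It also had 0 CPM in the 8 libraries of the other genotypes. The ΔBor libraries stood at 2.46, 1.88 and 5.07 CPM, with hom the highest. Against a floor of 3 counts per WT library the ΔBor mean of 3.14 CPM was at least 49.7-fold higher (adjusted p = 0.00215). This bound covers counting error only. The call was made in 14 of 15 alternative fits, the exception being DESeq2 (adjusted p = 0.0826), and in all 7 fits without 1 library. Of 15 kallikreins listed, all of them Klk1 or Klk1b genes, Klk1b22 was the only one with enough counts to be tested. Klk13, Klk10, Klk9, Klk8 and Klk4, not listed and just before it in gene order, were tested and not called (adjusted p from 0.159 to 0.844). The listed kallikreins are similar in sequence, and the sources used here do not state how reads were shared among them.

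Promoter windows of the marker genes that rose are given to show where their transcripts start. RefSeq (GRCm38.p6) held windows of 250 bases before to 50 bases after the start for 3 of the 5 marker genes: Kcnj2 (chr11:111065914-111066213), Klk1b22 (chr7:44112423-44112722) and Hddc3 (chr7:80342887-80343186), all on the plus strand. Each is written 5′ to 3′, with capitals marking motif matches on either strand. The motif CCAAT, named after its letters, is common in proximal promoters. The motif TATAAA is the TATA box. A core of sites that SOX proteins bind, searched as the third motif, is AACAAT.
Kcnj2: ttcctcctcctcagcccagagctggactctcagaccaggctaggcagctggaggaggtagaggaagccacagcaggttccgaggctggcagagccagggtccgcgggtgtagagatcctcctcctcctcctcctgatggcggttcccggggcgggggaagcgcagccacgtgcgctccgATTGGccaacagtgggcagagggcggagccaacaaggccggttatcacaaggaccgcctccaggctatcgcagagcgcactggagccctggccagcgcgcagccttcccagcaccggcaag
Klk1b22: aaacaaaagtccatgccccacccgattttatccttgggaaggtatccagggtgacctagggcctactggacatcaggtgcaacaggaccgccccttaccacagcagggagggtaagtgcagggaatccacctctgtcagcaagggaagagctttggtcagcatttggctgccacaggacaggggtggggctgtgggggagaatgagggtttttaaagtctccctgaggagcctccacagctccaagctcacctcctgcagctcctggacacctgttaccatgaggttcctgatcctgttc
Hddc3: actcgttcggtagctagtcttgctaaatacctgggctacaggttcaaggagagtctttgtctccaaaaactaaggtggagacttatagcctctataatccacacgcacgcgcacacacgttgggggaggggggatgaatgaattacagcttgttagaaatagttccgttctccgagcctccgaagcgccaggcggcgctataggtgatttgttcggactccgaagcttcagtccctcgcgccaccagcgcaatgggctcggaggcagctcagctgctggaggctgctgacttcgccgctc
The Kcnj2 window holds 1 match to the CCAAT motif, on the reverse strand, and no match to the other motifs, and the Klk1b22 and Hddc3 windows match none of the 3. Of 32851 promoter windows of this length, 37.4% hold the CCAAT motif, 13.6% the TATA box and 10.7% the SOX core. GC made up 66.7% of the Kcnj2 window, 56.0% of the Klk1b22 window and 55.0% of the Hddc3 window, with a median of 52.7% over all windows. CpG occurred 18 times in the Kcnj2 window, 2 times in that of Klk1b22 and 20 times in that of Hddc3. 
Among the other genes lower in ΔBor in every fit, Lgals7 showed the largest change. Lgals7 encodes galectin-7, a lectin of stratified epithelia, and stood at 1.40 and 1.23 CPM in het and 1.18 CPM in hom, against 8.50, 8.23, 15.9 and 11.1 CPM in WT 1 to WT 4 (log2 fold change -3.10, SE 0.24, adjusted p = 3.23e-06). Its groups were well apart, and the other genotypes had 4.47 to 11.4 CPM. Apoe, whose protein carries lipids, was at 21.8, 30.4 and 19.1 CPM in ΔBor and 43.2 to 53.5 CPM in WT (-1.09, SE 0.15, adjusted p = 0.00157). Pcsk6, which encodes a proprotein convertase that activates secreted precursors such as NODAL and BMPs, was at 38.8 to 41.4 CPM in ΔBor and 66.5 to 97.5 CPM in WT (-1.05, SE 0.12, adjusted p = 0.000194). Ercc2, the gene of the XPD helicase of transcription and DNA repair, was at 24.0 to 28.0 CPM in ΔBor and 47 to 55 CPM in WT (-0.98, SE 0.10, adjusted p = 5.47e-05). Each of these 3 genes was lower in every ΔBor library than in every WT library, as were 11% of tested genes.

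Other genes lower in every fit changed by similar amounts. Cpt1c, a neuronal member of the carnitine palmitoyltransferase family, fell by 1.06, the BCL2-family gene Bcl2l12 by 0.91 and the ribosomal protein gene Rpl13a by 1.12 on the log2 scale; the 3 lie close together in the gene order of chromosome 7. Rpl13a has processed pseudogenes, so its counts depend on how the authors assigned shared reads. Off chromosome 7, Olfml2a (chromosome 2), which encodes an olfactomedin-like matrix protein, fell by 0.99. Rpl13a, Apoe and Olfml2a overlapped with the 2 Dup-L libraries, where Apoe was at 27.1 to 29.9 CPM.

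Among the genes higher in every fit, Arhgap33os stood at 1.98 and 2.98 CPM in het and 2.62 CPM in hom, against 0.03 to 0.10 CPM in WT (log2 fold change 5.43, SE 0.48, adjusted p = 1.96e-05). It is named as an antisense transcript of Arhgap33, and no source used here says that counting used strand, so its reads cannot be told apart from those of an overlapping gene. Pttg1, on chromosome 11 and encoding securin, which holds sister chromatids together until anaphase, was at 36.3 and 27.7 CPM in het and 37.3 CPM in hom, against 18.0, 17.1, 17.3 and 14.3 CPM in WT 1 to WT 4 (1.02, SE 0.11, adjusted p = 0.000122). The ΔBor libraries were all higher than the 11.9 to 21.6 CPM of the 8 other libraries. The other 3 have names only in the deposited tables: AK220028_gene (0.82), BC071253_gene (0.96) and Gm13154_copy2 (2.90). The suffix of the last marks one of several copies, among which reads may be shared. None of these 3 had a GC content, so the offsets for GC and length left them uncorrected.

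**Figure D2:**
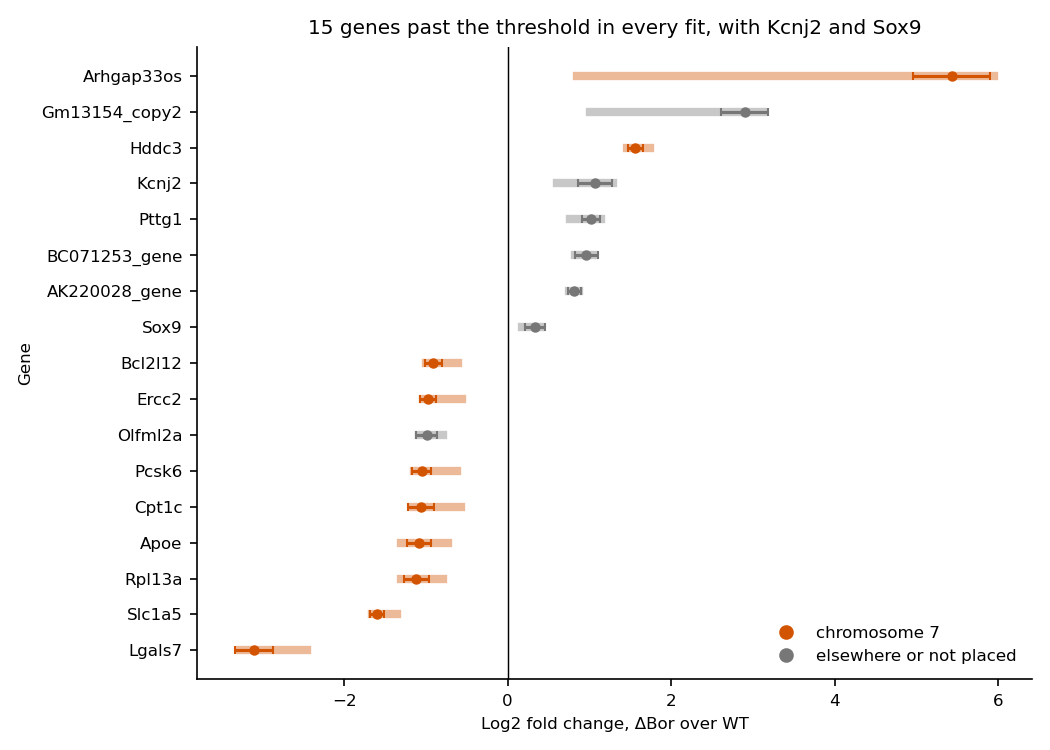
Log2 fold change of ΔBor over WT for 15 of the 16 genes past the threshold in every fit, with Kcnj2 and Sox9. Points with bars give the value and its SE, pale bars the range over 22 other fits, and orange marks genes of chromosome 7. Hddc3 (1.46 to 1.74) and Slc1a5 (-1.66 to -1.35) moved little between fits, and Arhgap33os, a gene of low count, ran from 0.85 to 5.95.

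None of the 16 genes differed between hom and het at the threshold (adjusted p = 0.999 for each), although each also had a slope past the threshold over 0, 1 and 2 deleted alleles. None of these slopes passed with the 7 libraries alone in the fit (adjusted p = 0.0979 for each). Kcnj2, not among the 16, had the larger step from het to hom: 0.75 log2 units, against -0.45 (Apoe) to 0.49 (Gm13154_copy2) among the 16. The allele-dose fit called 3104 genes, or 17.6% of those tested, and 1854 of them rose (10.5%) and 1250 fell (7.08%). Het against WT called 712 genes (4.03%) and hom against WT 225 (1.27%), the hom comparison with 1 library that is assumed to vary like the others. Hom against het called 0 genes in edgeR, with 505 at an unadjusted p under 0.05, 2 in DESeq2 and 1, 1 and 52 in limma under 3 settings. Of the 2 in DESeq2, 1 was the Y-linked gene Kdm5d (log2 difference of hom from het -24.1), and hom and het differed in sex markers. Myo7a, which encodes an unconventional myosin of sensory hair cells and is named after its values were seen, was the gene called most often between hom and het. It was at 29.4 CPM in hom and at 15.1 and 16.1 CPM in het, while WT libraries had 28.7 to 39.2 CPM. The log2 difference of hom from het was 0.91 (SE 0.17, adjusted p = 0.999) and passed in DESeq2 (0.92, adjusted p = 0.0111) and once offsets for GC and length were added (1.03, adjusted p = 0.0249). Myo7a in hom thus lay within the WT range and in both het libraries below it, which is not an order by allele number.

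Chromosome 7 had the highest share of called genes in the fits with offsets for GC content. Without offsets 22.5% of its 1240 tested genes were called, against 16.7% to 25.6% on the other autosomes and X, and the highest share was on X. Y, with 5 tested genes and 0 calls, is left out of these ranges. With GC and length offsets the share was 9.76% on chromosome 7, against 3.01% to 7.33% elsewhere and 5.86% over all genes. With offsets and WT 1 and WT 3 alone it was 6.82%, against 0.938% to 3.84% elsewhere and 3.03% over all genes. With offsets and a batch term it was 1.94%, against 0% to 1.5% elsewhere and 0.549% over all genes. On chromosome 11, which holds the deletion, 5.83% were called with offsets. Of the genes whose ΔBor libraries lay outside all 12 other libraries, 68 were among the 1240 of chromosome 7 (5.48%), against 1.88% of genes on the other chromosomes. These shares are descriptions, since neighbouring genes are not independent of each other.

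**Figure D3:**
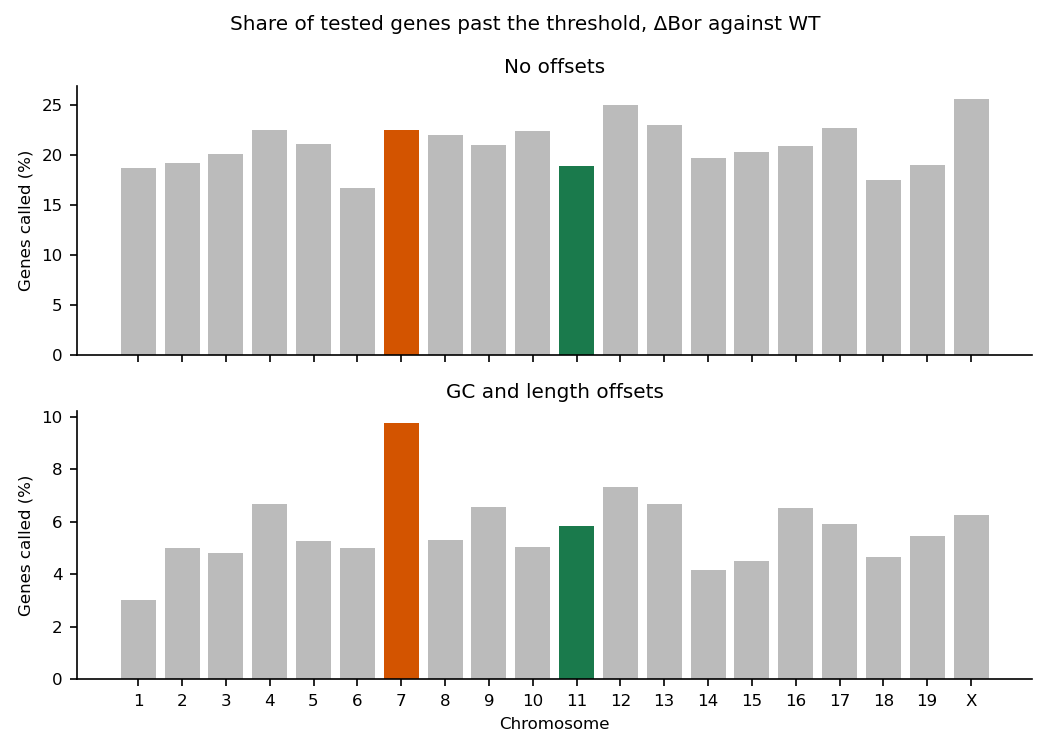
Share of tested genes past the threshold in ΔBor against WT on each chromosome, without offsets (upper panel) and with GC and length offsets (lower panel), in percent on axes that start at 0. Chromosome 7 (orange) has 22.5% above and 9.76% below, the highest share of the lower panel, and chromosome 11 (green) has 18.9% above and 5.83% below.

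The calls on chromosome 7 lay mostly in the first 5 of 10 equal parts of its gene order. With offsets 14, 19, 17, 13 and 14 of 124 genes were called in these parts, and 10, 9, 10, 6 and 9 in the other 5. Slc1a5, Ercc2 and Apoe were the 121st, 161st and 177th tested gene, Lgals7 the 306th, Arhgap33os the 353rd and Klk1b22 the 442nd. Cpt1c, Bcl2l12 and Rpl13a were the 477th, 479th and 490th, followed by Pcsk6 as the 618th and Hddc3 as the 679th. Genes that rose and genes that fell were interspersed along this stretch. By the rule for the largest changes, Abcc6 (-3.01, adjusted p = 0.000161), Vmn2r29 (-2.76, adjusted p = 1.96e-05), Zfp296 (-2.74, adjusted p = 0.00695) and Oscar (-2.47, adjusted p = 0.00561) on the same chromosome fell, and Nlrp9b (3.90, adjusted p = 0.0038) rose, each at under 3 CPM in all 7 libraries.

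**Figure D4:**
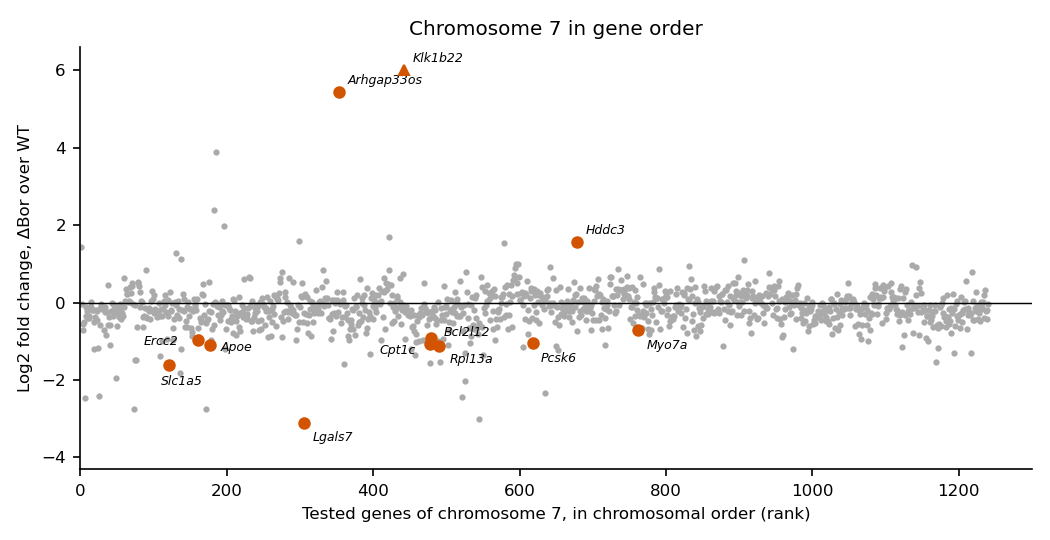
Log2 fold change of ΔBor over WT for the 1240 tested genes of chromosome 7, ordered by position and plotted by rank. Orange marks the genes past the threshold in every fit with Klk1b22 (triangle, beyond the axis, since WT had 0 counts) and Myo7a, and the marked genes lie between rank 121 (Slc1a5) and rank 762 (Myo7a).

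The remaining genes with the largest changes were mostly of low level. AF365933_gene was at 1.38, 0.50 and 2.42 CPM in ΔBor and at 0.02 CPM or less in WT (6.77, SE 0.72, adjusted p = 0.000118). Zfp534, a zinc finger gene of chromosome 4, was at 7.62 and 3.95 CPM in het and 6.0 CPM in hom, against 0.04, 0.04, 1.98 and 0.06 CPM in WT 1 to WT 4 (3.42, SE 0.91, adjusted p = 0.0219). RP23-282C23.3 had the same pattern, with 30.1, 21.3 and 29.1 CPM in ΔBor and 0.48, 0.34, 10.8 and 0.14 CPM in WT 1 to WT 4 (3.17, SE 1.01, adjusted p = 0.0469). In both, WT 3 stood between the ΔBor libraries and the other WT libraries, and against WT 1 and WT 3 alone neither passed (adjusted p = 0.0712 for Zfp534 and 0.0916 for RP23-282C23.3). Without WT 3 the log2 fold change was 7.03 for Zfp534 (adjusted p = 1.2e-06) and 6.31 for RP23-282C23.3 (adjusted p = 4.3e-08). Within the first batch it was 7.2 (adjusted p = 2.27e-05) for Zfp534 and 6.03 (adjusted p = 2.58e-07) for RP23-282C23.3. Hand1, a transcription factor of early limb and heart, followed the falling order by allele number. It was at 0.53 and 2.14 CPM in het and 0.41 CPM in hom, against 2.44 to 5.10 CPM in WT (slope -1.52 per allele, SE 0.28, adjusted p = 0.0123). Het 1 thus lay near hom, and het 2 near the lowest WT library. Pooled, Hand1 was at -1.82 (adjusted p = 0.014) and passed in 7 of 15 alternative fits. Against WT 1 and WT 3 alone it did not pass (-1.36, adjusted p = 0.0825). Hist1h4c fell by 2.81 on the log2 scale, and its reads may be shared with other histone H4 genes.

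In the limb skeleton the cartilage genes had few calls, against 8.65% of all genes lower and 11.4% higher. Of 21 tested cartilage genes other than Sox9, which include Col2a1 and Acan, 0 rose and 1 fell (median -0.32 log2 units). That gene was Comp, a matrix protein of cartilage and tendon, at 0.82 and 1.96 CPM in het and 1.63 CPM in hom, against 2.38, 5.20, 1.58 and 8.86 CPM in WT 1 to WT 4 (-1.60, SE 0.52, adjusted p = 0.0434). Its groups overlapped, and against WT 1 and WT 3 alone it was at -0.44 (adjusted p = 0.453), where the median of the list was 0.19. Of 11 tested genes of hypertrophic cartilage and bone 3 fell, against 8.65% of all genes: Pth1r, the receptor of PTHrP (-0.54, adjusted p = 0.0376), Alpl, alkaline phosphatase (-0.67, adjusted p = 0.038), and the homeobox gene Dlx6 (-0.68, adjusted p = 0.0138). Dlx6 was at 2.88, 2.87 and 2.53 CPM in ΔBor and 4.0 to 4.68 CPM in WT, and it passed against WT 1 and WT 3 alone (adjusted p = 0.0465). Pth1r (adjusted p = 0.112) and Alpl (adjusted p = 0.121) did not, and the median of the list was -0.54 with all 4 WT libraries and -0.05 with these 2. Of 13 joint interzone genes 0 passed in edgeR, DESeq2 or limma, with 4 at an unadjusted p under 0.05 in edgeR (median -0.17). In the tendon list of 12, 1 gene rose and 1 fell (median -0.09). The gene that fell was Tnc, which encodes the matrix protein tenascin-C (-0.73, SE 0.24, adjusted p = 0.0429). Its groups overlapped, at 71.7 to 121 CPM in ΔBor and 107 to 201 CPM in WT. Tnc did not pass against WT 1 and WT 3 alone (adjusted p = 0.202).

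Of 28 tested patterning genes of the distal limb, 2 rose and 0 fell (median 0.09), a lower share than the 11.4% of all genes that rose: Hoxd13 (0.43, SE 0.12, adjusted p = 0.0243) and Hoxa13 (0.32, SE 0.10, adjusted p = 0.0398), the homeobox genes of the autopod. Hoxd13 was at 827 and 623 CPM in het and 807 CPM in hom, against 688, 541, 529 and 479 CPM in WT 1 to WT 4, so that het 2 lay below WT 1. Neither passed against WT 1 and WT 3 alone (adjusted p = 0.161 for Hoxd13 and 0.267 for Hoxa13). Of 13 proximal limb genes 2 rose, among them Tbx15 (0.35, adjusted p = 0.0212), and 1 fell, Crabp1 (-0.59, adjusted p = 0.0216), together near the 20.1% called over all genes. Crabp1 overlapped between the groups and did not pass against WT 1 and WT 3 alone (adjusted p = 0.0752). Of 9 hindlimb genes 0 passed in edgeR (3 at an unadjusted p under 0.05), 1 in DESeq2 and 2 in limma, with a median of 0.81 against all 4 WT libraries and 0.27 against WT 1 and WT 3. Tbx5, the forelimb regulator, fell (-0.76, SE 0.21, adjusted p = 0.0211), at 92.4, 104 and 97.0 CPM in ΔBor and 136, 234, 102 and 191 CPM in WT 1 to WT 4. It did not pass against the Pitx1-high WT libraries (-0.30, adjusted p = 0.126).

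Of 20 genes of the apical ridge and surface ectoderm 3 fell, against 8.65% of all genes, and the 3 are keratins of the epidermis. Krt14 was at 107 and 133 CPM in het and 100 CPM in hom, against 195, 166, 236 and 182 CPM in WT 1 to WT 4 (-0.78, SE 0.14, adjusted p = 0.00515), and Krt5 (-0.65, adjusted p = 0.0162) and Krt17 (-0.72, adjusted p = 0.00695) followed. The 3 passed against WT 1 and WT 3 alone as well (adjusted p from 0.00504 to 0.0139), where 5 of the 20 fell. The median of the list was -0.09 log2 units (all genes, -0.02), -0.33 against WT 1 and WT 3 alone and 0.0039 with GC and length offsets. The summed level of the list was 690 to 783 CPM in ΔBor and 783 to 1200 CPM in WT. This sum includes the 3 keratins, and Krt5 alone was at 215 to 267 CPM in ΔBor and 279 to 494 CPM in WT. It is therefore no separate measure of the other genes listed. Of 13 genes of nerve and glia 4 fell, against the same 8.65%, among them Tubb3, a neuronal tubulin (-1.0, SE 0.19, adjusted p = 0.00612), Ngfr, a neurotrophin receptor (-0.82, SE 0.16, adjusted p = 0.00649), and Erbb3, a neuregulin receptor (-0.36, adjusted p = 0.0345). Their list summed to 114 to 159 CPM in ΔBor and 167 to 201 CPM in WT. In bulk tissue, fewer cells of a type and less RNA per cell cannot be told apart.

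Of 12 macrophage genes, Csf1r (-0.46, adjusted p = 0.0409), Cd68 (-0.67, adjusted p = 0.02) and C1qb (-0.60, adjusted p = 0.0188) fell, against 8.65% of all genes. Against WT 1 and WT 3 alone C1qb passed (adjusted p = 0.048), and Csf1r (adjusted p = 0.112) and Cd68 (adjusted p = 0.131) did not. The list summed to 69.7 to 82.9 CPM in ΔBor and 83.2 to 101 CPM in WT. The endothelial gene Egfl7 was the only one of 15 to fall (-0.46, adjusted p = 0.00918), a share below that of all genes, and it missed the threshold against WT 1 and WT 3 alone (adjusted p = 0.0506). Of 19 skeletal muscle genes 0 passed in edgeR (3 at an unadjusted p under 0.05) and 1 each in DESeq2 and limma (median -0.61). Of 9 erythroid genes 0 passed in any of the 3 tools or at an unadjusted p under 0.05 (median 0.26). Both lists had summed levels that overlapped between the groups (463 to 876 CPM in ΔBor and 633 to 1340 CPM in WT for muscle, 3090 to 6300 CPM in ΔBor and 1790 to 5030 CPM in WT for blood). Of 4 sex-linked genes 0 passed, with 0 at an unadjusted p under 0.05 and 0 in DESeq2 or limma. With GC and length offsets the counts of lower genes were 1 of 20 for ectoderm, 2 of 13 for nerve and glia, and 0 for macrophages and endothelium, against 2.72% of all genes.

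Fold changes over all genes moved with GC content. In 5 bins from low to high GC, the median log2 fold change was 0.31, 0.11, -0.04, -0.18 and -0.30 for ΔBor against WT. Het and hom had the same order, with 0.28 to -0.28 in het and 0.36 to -0.34 in hom. Hom against het ran from 0.10 to -0.05 over the same bins. With offsets for GC and length 1034 genes were called in ΔBor against WT, or 5.86%. Kcnj2 stood at 0.76 in that fit (adjusted p = 0.0484), Slc1a5 at -1.35 (adjusted p = 1.35e-07) and Hddc3 at 1.67 (adjusted p = 1.9e-08).

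**Figure D5:**
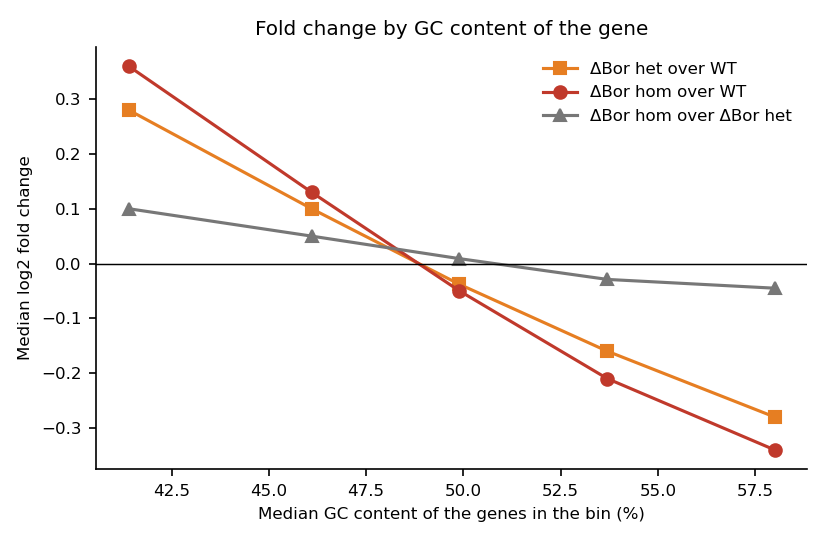
Median log2 fold change in 5 bins of genes by GC content, plotted at the median GC percentage of each bin. Both ΔBor genotypes fall with GC content against WT (0.28 to -0.28 in het, 0.36 to -0.34 in hom), and hom over het (grey) falls from 0.10 to -0.05.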

How the data were processed

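PolyA RNA was sequenced from E12.5 limb buds (TruSeq RNA V2, per the labels' protocols). The submitters' processing notes name STAR, mm9, DESeq2 and bedtools 2.17.0; for the counting tool, its annotation and the strand, no setting was found in the sources used here. The authors deposited raw counts for 34682 genes and a table of FPKM values of the same libraries. The hom column is numbered 3 where its label gives replicate 1, and it was matched by genotype. The 4 Dup-LΔBor columns, matched by group, enter the shared spread and are given as levels beside some results. Of the genes tested, 91.9% were given a chromosome and 91.4% a GC content and length by symbol, from RefSeq and GENCODE annotation of GRCm38, another build than the files', so apart from the promoter windows, which carry their own build, no coordinates were used.

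Counts were fitted in R 4.3.3 with edgeR 4.0.16 (TMM, filterByExpr with groups, two-sided F-test of the robust quasi-likelihood fit, Benjamini-Hochberg, threshold 0.05), with all 15 libraries in 1 fit. Levels are counts scaled to 1e6 counts per library (CPM), with library sizes adjusted by the TMM factors. Fold changes are log2. Alternatives were DESeq2 1.42.0, limma 3.58.1 on log2(FPKM + 0.1) or log2(FPKM + 1) with a minimum of 1 FPKM or no filter, other scaling, filter and WT libraries, a batch term, GC and length offsets, the replicate number as a block, and each library left out. The steps were tested on simulated data. The genes, lists and members were chosen with earlier results of these data known. Genes named are the 5 markers, the locus, members of the lists past the threshold, up to 12 each way with the largest non-overlapping change (6 each way for allele number, 4 for hom against het) and limb-type and sex markers. Genes past in every fit and Myo7a were named after their values were seen. A few genes that these rules name are not reported here.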

Additional observations from a re-analysis of the deposited data

Results flagged for a closer look

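In 7 of 68 groups of 4 WT values examined, 1 library stood apart from the other 3 by more than a 95% limit; chance gives about 1 in 20. Xist was at 2270 CPM in WT 1 and at 0.4 to 1 CPM in the other WT libraries. WT 3 stood apart in Zfp534 (1.98 CPM, against 0.04 to 0.06 CPM), in RP23-282C23.3 (10.8 CPM, against 0.14 to 0.48 CPM), in Hist1h4c (0.34 CPM, against 0.56 to 0.59 CPM) and in C1qb (9.73 CPM, against 8.81 to 8.91 CPM). Mir339 was at 0.31 CPM in WT 4, against 0.14 to 0.16 CPM in the others. DQ714940_gene had 1 count in WT 2 (0.0179 CPM) and 0 CPM in the others. With 3 values at 0 any count would be flagged, so this flag is not to be set against the 1 in 20. Over the 7 fits that left out 1 library each, ΔBor against WT passed in 4 for Zfp534 and in 1 for RP23-282C23.3.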

How the results depend on the processing

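The number of genes called in ΔBor against WT (3541) depended on the fit. It was 26 with the 7 libraries alone, 2073 against WT 1 and WT 3, 533 against these with GC and length offsets, 224 with a batch term, 352 within the first batch, 1034 with offsets and 97 with offsets and a batch term. In that order, the allele-dose fit (3104) called 0, 32, 5, 24, 91, 400 and 17 genes, het against WT (712) called 9, 245, 142, 32, 89, 102 and 34, and hom against WT (225) called 6, 19, 17, 26, 66, 22 and 20. DESeq2 called 2185 in het and 2210 in hom. Unfiltered limma called 1958 for allele dose, 101 in het, 129 in hom and 52 between hom and het, where the main count was 0. For hom against WT, limma called 83 and 58 with pseudocounts of 0.1 and 1, and edgeR without a filter 114. Hom against het had 1 call with offsets, with offsets and WT 1 and WT 3, with offsets and a batch term and in both filtered limma fits, and 2 in DESeq2. Of the 3541 genes, 729 were shared with the calls under offsets, 1618 with those against WT 1 and WT 3 and 3441 with those of DESeq2.

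Leaving out 1 library gave 350 to 4753 calls for ΔBor against WT, 705 to 4470 for allele dose, 19 to 2490 for het, 21 to 2750 for hom and 0 to 1 between hom and het. The pooled count was lowest without het 1 (350), hom 1 (705), WT 4 (1989) and WT 3 (2327). The dose count was lowest without hom 1 (705), WT 4 (1359), WT 3 (1848) and het 1 (1960). The het count was 19 without het 1, 56 without WT 4, 205 without WT 3, 1929 without het 2 and 2490 without WT 1. The hom count was 21 without WT 4, 76 without WT 2, 114 without WT 3, 934 without het 2, 952 without het 1 and 2750 without WT 1. Kcnj2 lay between 0.77 and 1.29 and Sox9 between 0.28 and 0.40 over these fits. Without hom 1 the pooled and the dose fit are both het against WT.

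Replicate numbers are shared by het and WT, but same-numbered libraries correlated at 0.166 and -0.0452, so the numbers were not taken as pairs. With the replicate block the counts were 168 (pooled), 40 (dose), 56 (het) and 38 (hom), and with the block and offsets 148, 50, 72, 52 and 1 (hom against het). Kcnj2 was at 0.88 with the block (adjusted p = 0.108) and 0.64 with the block and offsets (adjusted p = 0.353).

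Kcnj2 also missed the threshold with 7 libraries (1.05, adjusted p = 0.0658), offsets with WT 1 and WT 3 (0.61, adjusted p = 0.223), the batch term (0.94), within the batch (0.95) and offsets with the batch term (0.70, adjusted p = 0.28). Sox9 passed in DESeq2 (0.34). Pth1r turned sign with offsets and the batch term (0.0404, adjusted p = 0.918) and with the block and offsets (0.0431, adjusted p = 0.925). The causes were not tested. The single hom library limits every statement on hom, and counts of low genes limit their fold changes.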
